A study of Homo sapiens with 6 samples.

Results

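The clustered protocadherin genes were examined as the interval of chromosome 5 from 140.16 to 140.90 Mb (hg19, as all positions here), and all deposited peaks with a summit in it were taken. The interval holds the PCDHA subcluster (about 140.16 to 140.40 Mb), PCDHB (about 140.43 to 140.63 Mb) and PCDHG (about 140.71 to 140.90 Mb). The 6 libraries had 46 peaks in this interval, which merged into 10 of the 58926 regions of the series. The assay was ATAC-seq, which reads open chromatin by where a transposase can insert its adapters, and the cells were HCT116, an established human line from a colon cancer. The libraries came from NuMA-depleted cells (3) and from wild-type cells (3), and the question of the series is what NuMA, a protein of the nuclear skeleton, does for local chromatin architecture. The sample titles carry AID in the NuMA-depleted and NC in the wild-type group, without spelling either out. How NuMA was depleted is not described, nor is whether the wild-type cells carry any of the alleles of the depleted ones, or whether each replicate was its own culture. The p-values here therefore reflect the spread among these libraries, which may be technical.

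Clustered protocadherins are cadherin-type adhesion molecules that give single neurons a surface identity. In PCDHA and PCDHG each variable exon has its own promoter and is spliced to constant exons shared by the subcluster, while the PCDHB genes are single-exon genes. Neurons choose among these promoters stochastically, with CTCF and cohesin bound at promoters and at distant enhancers, whereas the C-type exons at the end of PCDHA and PCDHG are used more constitutively. RefSeq (GRCh38.p14) names 53 protein-coding genes in the family, 15 in PCDHA, 16 in PCDHB and 22 in PCDHG. In its order, PCDHA1 to PCDHA13 come first, then PCDHAC1, PCDHAC2 and the shared exons, then the PCDHB genes, then SLC25A2, a mitochondrial ornithine carrier, and TAF7, a subunit of the general transcription factor TFIID, and last the PCDHG genes, followed by DIAPH1. That table is on another build than the peaks, so no region was assigned to a gene. Nor could the label of the line be checked against marker genes.

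Short elements recur among the promoters of PCDHA1 to PCDHA13 and of PCDHB, and less widely in PCDHG, and 8 stretches are shown because they make the repeats visible. Promoters of 300 bases, from 250 before to 50 after the gene start, were matched by symbol in RefSeq for 47 of the 53 genes. PCDHA3, PCDHA13, PCDHB6, PCDHB11, PCDHGA12 and PCDHGC5 had no entry. Each stretch is from GRCh38.p14, plus strand of chromosome 5, 5′ to 3′, with the motif in capitals, for the first genes in RefSeq order (up to 3 a set) whose motif and its surroundings lie wholly before the start. PCDHGC3, whose GGCGCT began 199 bases before the start, also met this rule and is not shown. The search on the gene's own strand used only the first promoter listed for each gene. Of the 18 PCDHGA and PCDHGB genes matched, only PCDHGB4 and PCDHGB5 have GGCGCT there:
PCDHA1: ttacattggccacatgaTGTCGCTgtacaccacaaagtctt
PCDHA2: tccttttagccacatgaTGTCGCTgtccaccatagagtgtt
PCDHA4: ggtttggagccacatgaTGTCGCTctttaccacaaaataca
PCDHB2: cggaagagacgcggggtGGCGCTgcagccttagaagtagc
PCDHB3: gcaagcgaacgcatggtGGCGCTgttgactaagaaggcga
PCDHB4: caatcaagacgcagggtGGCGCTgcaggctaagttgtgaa
PCDHGB4: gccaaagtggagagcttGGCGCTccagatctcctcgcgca
PCDHGB5: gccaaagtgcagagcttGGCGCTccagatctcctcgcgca

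On either strand, TGTCGCT was found in 10 of the 11 promoters of PCDHA1 to PCDHA13, with PCDHA9 the exception, and in 1.76% of all 35116 promoters of the table. It was also in 3 of the 18 PCDHGA and PCDHGB promoters (PCDHGA3, PCDHGA4 and PCDHGA5), in 1 of the 14 of PCDHB (PCDHB4) and in 0 of the 4 C-type ones, 14 of the 47 in all. This motif was chosen after the sequences were read. Counts on either strand take a gene as matched if any of its listed promoters matched. Shares of all promoters count each listed promoter once, so the units differ. GGCGCT, searched as the core of the conserved element of these promoters, was found on either strand in 13 of the 14 PCDHB promoters (not in PCDHB1), in 8 of the 18 PCDHGA and PCDHGB promoters and in none of the 11 of PCDHA1 to PCDHA13, against 21.7% of all promoters. In the C-type set it was in PCDHAC1 and PCDHGC3 and not in PCDHAC2 or PCDHGC4. On the gene's own strand, the first TGTCGCT of the 10 PCDHA promoters began 41 to 84 bases before the start. The first GGCGCT of the 13 PCDHB promoters was spread more widely, with a median of 63 bases before the start, from 81 in PCDHB4 to 13 in PCDHB5 and, just past the start, -1 in PCDHB8. It was at 43 and 40 bases in PCDHGB5 and PCDHGB4, counted from the first of the 2 starts RefSeq lists for each, and at 199 in PCDHGC3. The core of the CTCF motif was searched on either strand as a longer pattern, with some letters fixed and the others free. It was in 1 of the 47 promoters (PCDHB9) and in 10.6% of all. A site that differs from this pattern at a fixed letter was missed. The count therefore cannot show that these promoters lack CTCF sites. TGTCGCT and GGCGCT share their last letters but cannot match at the same place. These are matches of letters, and whether CTCF binds there was not measured.

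The 3 subclusters differed in how many open sites they held. PCDHA had 5 regions, PCDHG had 2 and PCDHB, with its 16 genes in 200 kb, had a single region that was called in 1 of the 6 libraries. The gaps between the subclusters each had 1 region. Of the 10 regions, 7 (70%) were called in every library, where the share over all merged regions was 28.9%. Of these 7 shared regions 4 lay in PCDHA, 1 in the gap between PCDHA and PCDHB, 1 in the gap between PCDHB and PCDHG and 1 in PCDHG. None of the 10 was present throughout one group and absent throughout the other. Over the series, 0.625% of regions were present in the 3 NuMA-depleted libraries alone and 0.592% in the 3 wild-type libraries alone.

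**Figure D1:**
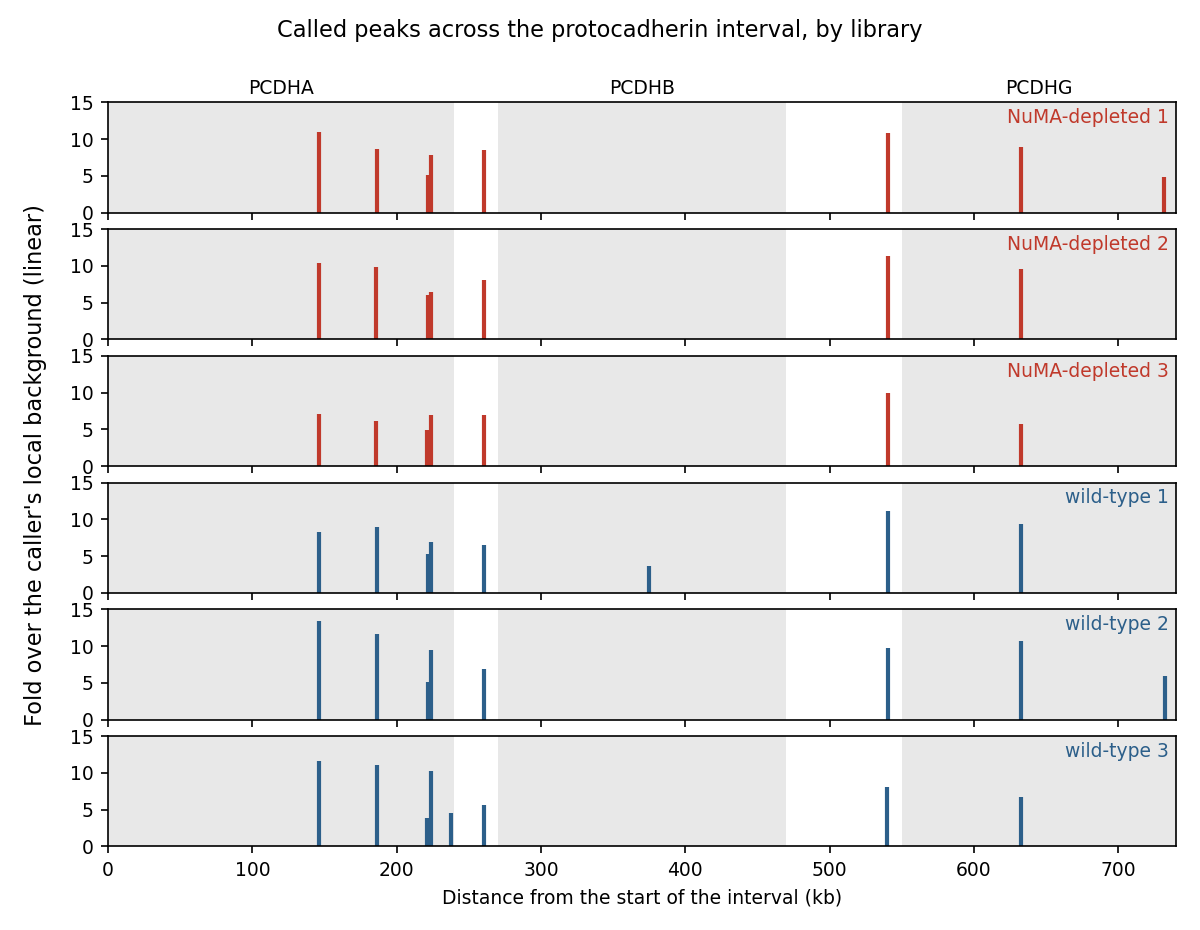
Fold over the caller's local background (vertical axis, linear) of every called peak against its distance in kb from the start of the interval (horizontal axis), 1 panel per library, NuMA-depleted in red and wild-type in blue, with the subclusters shaded. The same 7 sites recur in all 6 panels, and the PCDHB band holds 1 line, in wild-type replicate 1.

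By number of sites the interval lay below the series and below both flanks, and the sites it had were mostly recurrent. It held 13.5 regions per Mb, against 20 per Mb over all chromosomes, and 9.46 regions per Mb called in all 6 libraries, against 5.79. The flanks of the same length, 740 kb, held 41 regions below and 39 above it, of which 16 and 15 were called in all 6 libraries. Among 3394 bins of 740 kb with at least 1 region, 29.8% held fewer regions than this one, and the median bin held 16. By regions called in all 6 libraries, 69.4% of these bins held fewer than its 7, and the median bin held 4.

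**Figure D2:**
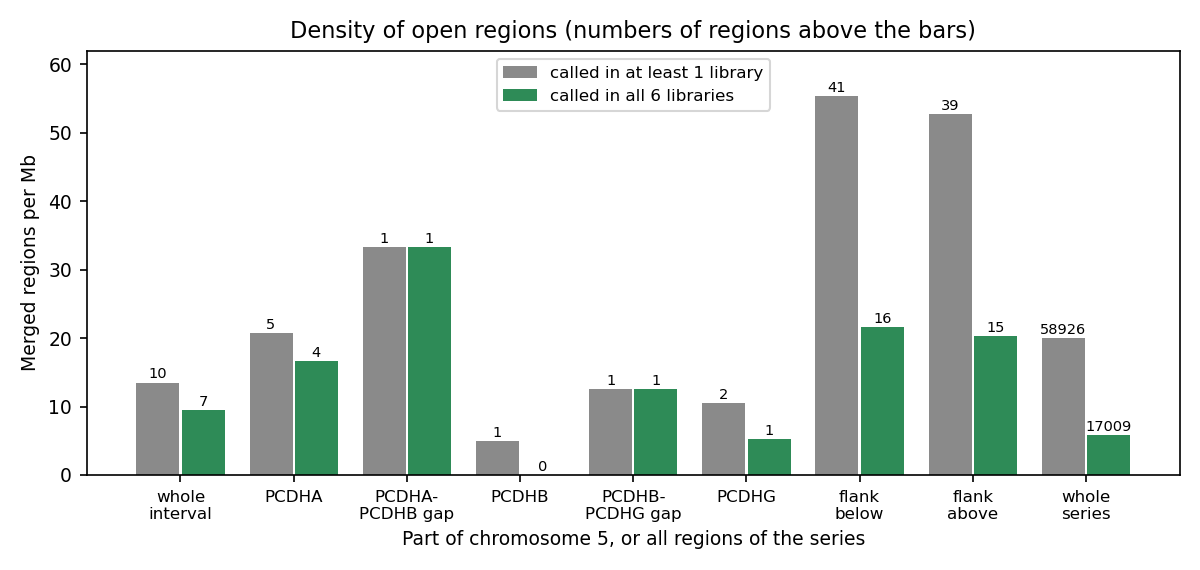
Merged regions per Mb (vertical axis) in the whole interval, its 5 stretches, the 740 kb flanks and the whole series (horizontal axis), called in at least 1 library (grey) or in all 6 (green), with the number of regions above each bar. PCDHB has 1 region, and both flanks have more regions per Mb than the interval.

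The open sites were unevenly spaced. No library had a peak in the first 145.7 kb of the interval, which is 60.7% of the PCDHA stretch. The stretch without any region ran from 140106137 to 140305669, 199.5 kb in all, and 97.1% of the 58903 stretches between neighbouring regions of the series were shorter. Within PCDHA the 4 shared regions then followed within 78.6 kb. The next long stretches lay on either side of the single PCDHB region, with 113.9 kb below and 164.7 kb above it, against a median of 19.3 kb over all stretches. Counting shared regions alone, 278.8 kb separated the region below PCDHB from the one above it, and 87.9% of such stretches in the series were shorter. In PCDHG the 2 regions were 98.59 kb apart, edge to edge. The median distance between neighbouring midpoints was 24.5 kb over the 5 PCDHA regions and 35.45 kb over its 4 shared regions, against 19.9 and 62.9 kb over the series.

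The regions are numbered in order along the chromosome. For each, the fold is the authors' own value in that library's list, and the pileup is the whole number of fragments at the summit, recovered from the fold and p-value. Whether lists share a common scale is not known, so folds and pileups were set side by side and not tested. Depth relative to the mean library was 1.07 to 1.21 in the NuMA-depleted and 0.762 to 0.975 in the wild-type libraries, so depth moves with the groups, and its part in the values below was not tested.

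Region 1, the first in PCDHA, covered 795 bp on chromosome 5 at 140305670 to 140306464. Its fold was 11, 10.4 and 7.10 in NuMA-depleted replicates 1, 2 and 3 and 8.30, 13.4 and 11.6 in wild-type replicates 1, 2 and 3. It had the highest fold of the interval in NuMA-depleted replicate 1 and wild-type replicates 2 and 3. The groups overlapped. The pileup was 33, 40 and 20 fragments in the NuMA-depleted and 22, 39 and 27 in the wild-type libraries. Within their own lists these folds stood between the 70.1 and the 98.4 percentile.

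Region 2, also in PCDHA, covered 1055 bp at 140345587 to 140346641. Its fold was 8.69, 9.81 and 6.08 in the NuMA-depleted and 8.99, 11.7 and 11 in the wild-type libraries. The groups overlapped in 1 pair of values, NuMA-depleted replicate 2 and wild-type replicate 1. NuMA-depleted replicate 3 was the lowest, with 15 fragments at the summit, where the other 5 libraries had 23 to 46.

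Regions 3 and 4 form a close pair at the end of the PCDHA stretch. Region 3 covered 788 bp at 140381173 to 140381960 and region 4 714 bp at 140383537 to 140384250, and 1.576 kb separated them. In the series 5.67% of stretches between neighbours were shorter than that. The distance between both summits was 2.24 to 2.69 kb over the 6 libraries.

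Region 3 was the weakest shared region by fold in every library. Its fold was 5.05, 6.06 and 4.97 in the NuMA-depleted and 5.26, 5.05 and 3.82 in the wild-type libraries, and the groups overlapped. Its pileup was not low, with 29, 56 and 23 fragments in the NuMA-depleted and 27, 25 and 18 in the wild-type libraries. The weakest call was that of wild-type replicate 3, at a −log10 q of 4.81, and its fold stood at the 2.48 percentile of that list.

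Region 4 had the most fragments of all 10 regions in every library. The pileup was 46, 59 and 33 fragments in the NuMA-depleted and 36, 48 and 49 in the wild-type libraries. Its fold was 7.85, 6.37 and 6.95 in the NuMA-depleted and 6.96, 9.40 and 10.3 in the wild-type libraries, and the groups overlapped. The pileup of region 4 was 1.05 to 1.92 times that of region 3 in 5 libraries and 2.72 times in wild-type replicate 3.

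The local background set this pair apart from the other shared regions. It was 3.83 to 8.43 fragments at regions 3 and 4 and 1.23 to 3.79 at the other 5 shared regions. Within a library both values of the pair were close, such as 4.94 and 4.98 in NuMA-depleted replicate 1. Whether fragments of either region count in the background of the other was not tested. In every library both values of the pair were above all 5 others, for example 8.41 and 8.43 against 2.46 to 3.79 in NuMA-depleted replicate 2 and 3.97 and 3.85 against 1.23 to 1.75 in wild-type replicate 3. Pileup and fold therefore rank the regions differently. Region 4 came first of all regions by pileup in 6 of 6 libraries, and by fold it ranked 3 to 6.

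**Figure D3:**
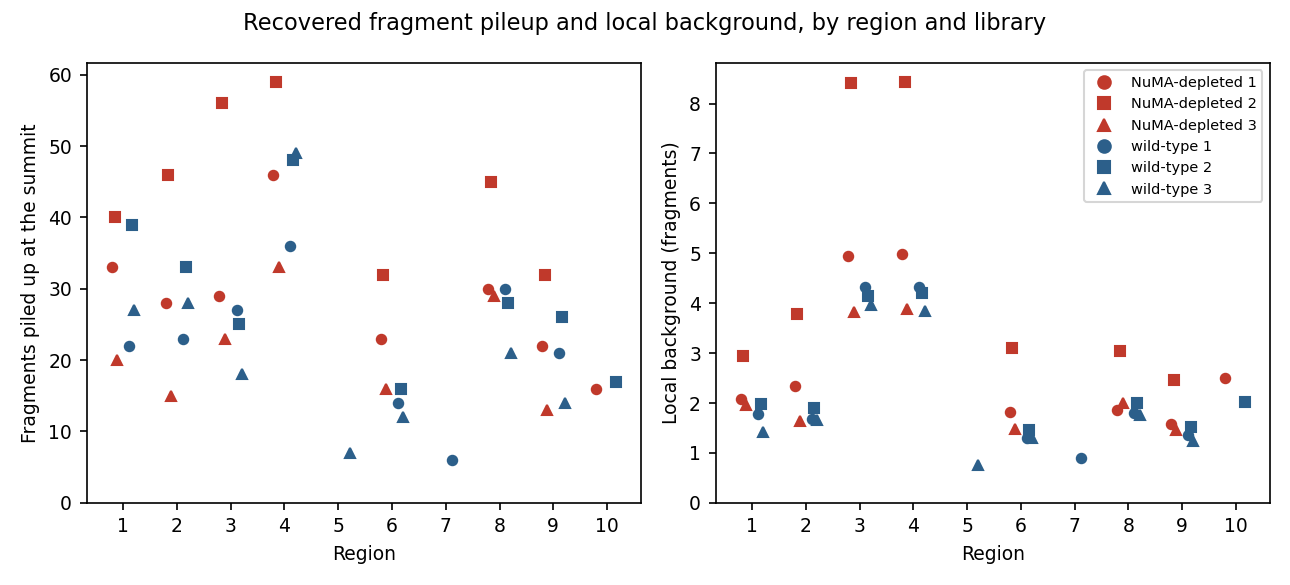
Left, fragments piled up at the summit, and right, the local background in fragments (both recovered from the deposited fold and p-value), for regions 1 to 10 (horizontal axis), with NuMA-depleted libraries in red and wild-type libraries in blue. The background of regions 3 and 4, from 3.83 to 8.43 fragments, lies above that of the other shared regions within each library.

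Region 6 lay in the gap between PCDHA and PCDHB and was the widest of the interval, 1267 bp at 140419737 to 140421003. RefSeq orders the PCDHA constant exons before PCDHB1, but on another build, so neither was placed against this region. The fold of region 6 was 8.49, 8.04 and 6.90 in the NuMA-depleted and 6.51, 6.91 and 5.68 in the wild-type libraries. In fold the groups overlapped by 1 pair of nearly equal values, NuMA-depleted replicate 3 and wild-type replicate 2, with 16 fragments in both. Within their own lists these folds stood at percentiles 72.3, 72.1 and 66.4 in NuMA-depleted replicates 1, 2 and 3. In wild-type replicates 1, 2 and 3 they stood at 49.1, 43.2 and 28.8, so these percentiles did not overlap. How many regions of the series do the same was not counted, so this is a value and not a result, and the difference was not tested. In depth-scaled pileup (pileup divided by relative depth) the groups overlapped. It was 21.4, 26.5 and 14.4 in NuMA-depleted and 14.4, 18.4 and 15.7 in wild-type replicates 1, 2 and 3. The mean fold was 7.81 ± 0.824 (SD, n = 3) in the NuMA-depleted and 6.37 ± 0.628 (SD, n = 3) in the wild-type libraries. The peak measured 1039, 1186 and 1010 bp in NuMA-depleted and 439, 1172 and 631 bp in wild-type replicates 1, 2 and 3, so wild-type replicate 2 was as wide as the NuMA-depleted libraries and the other two wild-type libraries were narrower. When each list was limited to its strongest 21783 peaks, region 6 was kept in all 3 NuMA-depleted and in no wild-type library, as were 1.26% of all regions under that limit. That limit keeps peaks down to a −log10 p of 4.43 in NuMA-depleted replicate 3 and 17.1 in NuMA-depleted replicate 2, and the −log10 p of region 6 was 10.9, 12.3 and 8.87 in wild-type replicates 1, 2 and 3, where the limit was 11.2, 13.9 and 10.9.

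Region 8, in the gap between PCDHB and PCDHG, covered 1037 bp at 140699800 to 140700836. SLC25A2 and TAF7 are the protein-coding genes that RefSeq orders between PCDHB15 and PCDHGA1. Its fold was 10.8, 11.4 and 9.95 in the NuMA-depleted and 11.1, 9.68 and 8.01 in the wild-type libraries, and the groups overlapped. It was the first of the interval by fold in NuMA-depleted replicates 2 and 3 and wild-type replicate 1. Its depth-scaled pileup was nearly equal in both groups, 30.4 ± 6.05 (SD, n = 3) in the NuMA-depleted and 30.2 ± 2.4 (SD, n = 3) in the wild-type libraries. At the other shared regions these means lay further apart. They were lower in the NuMA-depleted libraries at regions 1, 2, 4 and 9 and higher at regions 3 and 6. At region 4 they were 40.5 ± 9.89 in the NuMA-depleted and 52.2 ± 13.9 in the wild-type libraries (SD, n = 3).

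Region 9 was the one PCDHG region called in all 6 libraries, 804 bp at 140792465 to 140793268. Its fold was 8.95, 9.55 and 5.70 in the NuMA-depleted and 9.31, 10.7 and 6.71 in the wild-type libraries. Replicate 3 was the lowest in both groups, with 13 and 14 fragments, and the groups overlapped.

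**Figure D4:**
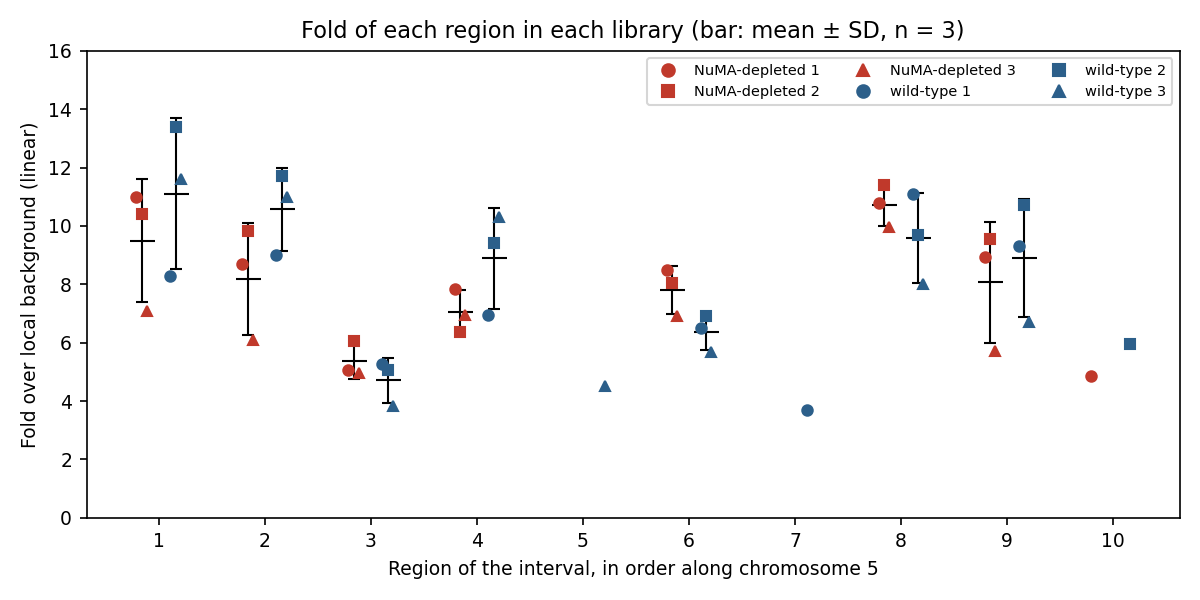
Fold over local background (vertical axis, linear) of regions 1 to 10 in order along chromosome 5 (horizontal axis), 1 point per library, NuMA-depleted in red and wild-type in blue, with the mean and SD of 3 libraries for the shared regions. Red and blue values overlap at each of the 7 shared regions, and regions 5, 7 and 10 have 1 or 2 points.

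The other 3 regions were called in 1 or 2 libraries, regions 5 and 7 weakly and region 10 less so. Region 5, in PCDHA at 140397286 to 140397538, was called in wild-type replicate 3 with 7 fragments, a fold of 4.53 and a −log10 q of 3.43. Region 7, the PCDHB site at 140534858 to 140535069, was called in wild-type replicate 1 with 6 fragments, the smallest pileup of any peak in that list, a fold of 3.69 and a −log10 q of 2.13. Region 10, in PCDHG at 140891857 to 140892245, was called in NuMA-depleted replicate 1 with 16 fragments and in wild-type replicate 2 with 17, at folds of 4.85 and 5.97 and a −log10 q of 6.24 and 8.43. Both lie above the weakest calls of shared regions 3 and 6, at 4.81 and 6.22. Under a limit of 5 on the −log10 q, region 10 stayed in both libraries and region 3 was lost in wild-type replicate 3. The smallest pileup of any called peak was 7, 8 and 7 fragments in the NuMA-depleted and 6 in each wild-type library. A site below that depth could not be listed, so the empty PCDHB stretch shows that no site passed the threshold in 5 libraries, not that its promoters were closed. Regions called in exactly 1 library made up 25.1% of the series and 2 of the 10 here.

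Summits were not equally well placed among the shared regions. The 6 summits of region 4 fell within 78 bp, from 140383915 to 140383993. Those of region 3 spread over 410 bp, although 4 of them lay between 140381673 and 140381675 and the others at 140381265 in wild-type replicate 3 and 140381340 in NuMA-depleted replicate 3. At region 6 they lay at 140420564, 140420566 and 140420645 in NuMA-depleted replicates 3 and 2 and wild-type replicate 3, and between 140420794 and 140420830 in the other 3 libraries. At region 8 the spread was 407 bp, with wild-type replicate 3 at 140699969 and the other 5 libraries from 140700149 to 140700376. The median spread was 266 bp over the 7 shared regions and 157 bp over the 15746 regions of the series with 1 peak in each of the 6 libraries. Region 2 was the one shared region where summits of the groups did not overlap, at 140346189, 140346032 and 140346039 in NuMA-depleted replicates 1, 2 and 3 and at 140346229, 140346255 and 140346202 in the wild-type ones. That is 1 of 7, where 9.79% of the 15746 regions did the same, and the nearest values were 13 bp apart.

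**Figure D5:**
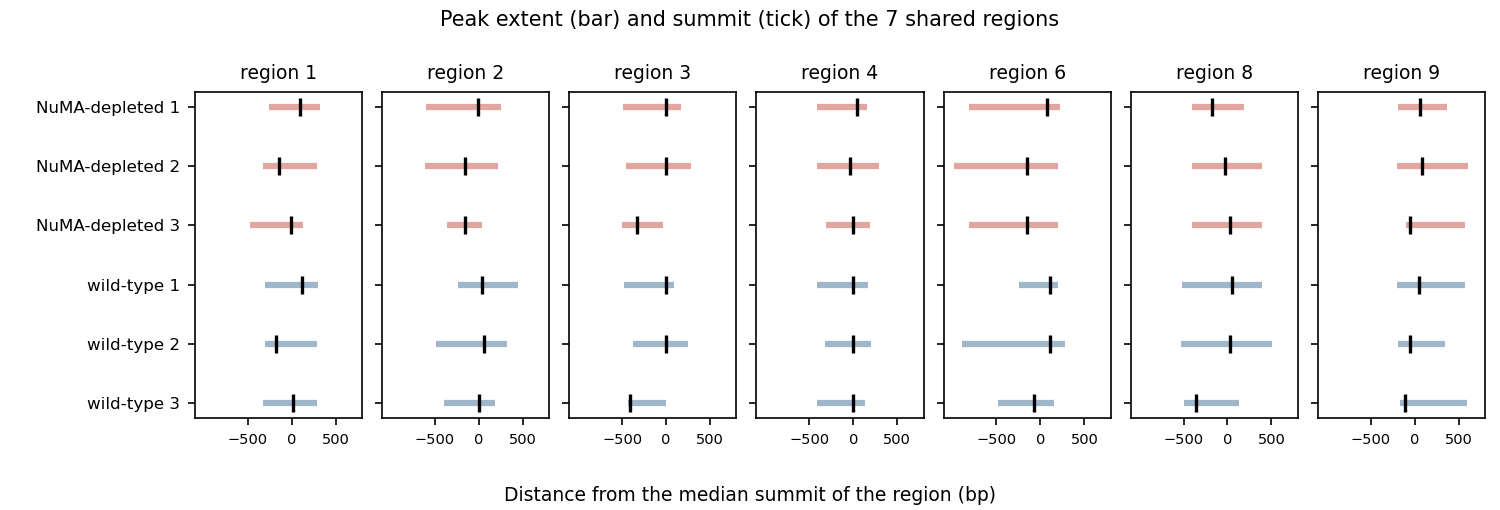
Extent of the peak (bar, NuMA-depleted in red and wild-type in blue) and its summit (black tick) in each library, against the distance in bp from the median summit of the region, for the 7 shared regions. Summits of region 4 fall within 78 bp, and those of region 3 spread over 410 bp.

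Against the series, the shared regions had a median of the median fold of 9.13, where all 17009 regions called in all 6 libraries had 7.90, and a median width of 804 bp, where all had 914 bp. The median of their weakest −log10 q was 7.52, against 9.31 for all. In their own lists the median percentile of their folds was 66.4 to 88.6 over the 6 libraries. Groups overlapped in fold at 7 of the 7, where 10.2% of all shared regions did not overlap (1.76% higher and 8.40% lower in the NuMA-depleted libraries). They overlapped at 7 of the 7 also in depth-scaled pileup, where 6.47% of all did not.

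The number of peaks in the interval differed by less than 1 between the group means, and the groups overlapped. NuMA-depleted replicates 1, 2 and 3 had 8, 7 and 7 peaks and each wild-type library had 8, means of 7.33 ± 0.577 and 8 ± 0 (SD, n = 3), with p = 0.4 in a two-sided exact permutation test, whose smallest possible p for groups of 3 is 0.10. The direction of this difference, -0.667, was not stable across settings. On leaving out each library it stayed negative, from -1 to -0.5. It was -1 without NuMA-depleted replicate 1 (exact p = 0.1, the smallest possible for 2 against 3). The difference was positive under the limit on q, 0.333 (exact p = 1), and with the strongest 21783 peaks of each list, 1.33 (exact p = 0.2). In that last setting NuMA-depleted replicates 1, 2 and 3 had 6, 7 and 7 peaks and the wild-type ones 6, 5 and 5. In PCDHA each library had 4 peaks except wild-type replicate 3 with 5 (exact p = 1), and in PCDHG there were 2, 1 and 1 peaks in NuMA-depleted replicates 1, 2 and 3 and 1, 2 and 1 in the wild-type ones (exact p = 1). In PCDHB wild-type replicate 1 had 1 peak and the others 0 (exact p = 1). The covered length was 5150, 5676 and 4440 bp in NuMA-depleted replicates 1, 2 and 3 and 4782, 5653 and 4445 bp in the wild-type ones (exact p = 0.8), and the groups overlapped. With the strongest 21783 peaks of each list the difference in covered length grew from 129 to 1180 bp more in the NuMA-depleted libraries (exact p = 0.1, the smallest possible). This setting kept region 6 in the NuMA-depleted libraries alone, with peaks of 1039, 1186 and 1010 bp. Region 6 therefore enters both this difference and that of 1.33 peaks.

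As a share of the library, the interval held 0.0208%, 0.0153% and 0.0321% of the peaks of NuMA-depleted replicates 1, 2 and 3 and 0.0225%, 0.0207% and 0.0246% of those of wild-type replicates 1, 2 and 3. NuMA-depleted replicates 2 and 3, with the longest and the shortest list of the series (45892 and 21783 peaks), stood at the ends, and the groups overlapped. Among 2410 bins of 740 kb tested together, 11.2% did not overlap. The log2 difference of NuMA-depleted to wild-type libraries in this share was -0.05 (SE 0.244), with an adjusted p of 0.986 by limma. By that fit 0 of the 2410 bins (0%) changed, and 135 had an unadjusted p under 0.05. Without NuMA-depleted replicate 3 the log2 difference was -0.33, and without NuMA-depleted replicate 2 it was 0.20, with adjusted p of 0.692 and 0.866 by limma.

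The ends of the interval fall at unlike places. Below it, the nearest region lay 53.9 kb away, at 140105472 to 140106136, and was called in all 6 libraries at folds of 7.70 to 11.1. Above it, a region called in all 6 libraries at folds of 7.98 to 9.20 began 495 bp beyond the end, at 140900496 to 140901355. Region 10, just inside that end, was called in 2 libraries.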

How the data were processed

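The data are 6 lists of ATAC-seq peaks from HCT116 cells, 1 per sample. The submitters' processing notes name Trim Galore, Bowtie2 2.4.1, Picard and build hg19. A macs2 folder stands in the peak names of the deposited files. Filters on reads, shifts of reads, and how the caller was set and its version were not given in the sources used here. Columns used from the deposited lists were the interval, summit, fold over local background (a linear ratio), −log10 p-value and −log10 q-value. The deposited score repeats the −log10 q and was not used. No list holds a −log10 q below 2.00.

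Peaks were placed by summit, and peaks of different libraries that shared at least 1 bp were merged. Pileup and local background were recovered under a Poisson model (fold as pileup + 1 over background + 1, tolerance 0.01 in −log10 p). A whole pileup was found for 100% of the peaks with a −log10 p under 290. Relative depth was the smallest background divided by the smallest width, which assumes that this width equals the caller's fragment length. Depth in reads is unknown. The share of a library's peaks per 740 kb bin (mean of at least 5 peaks, log2, pseudocount 0.5) was fitted in limma 3.58.1 (R 4.3.3) with a Benjamini-Hochberg threshold of 0.05. The fit was run on simulated Poisson counts without added spread among replicates, which cannot show how small a change could be found in these libraries. Single values were compared by exact permutation of the libraries in Python 3.11.15 with scipy 1.17.1. The rule named every region called in all 6 libraries or in 1 group alone and the strongest of each stretch, and the other 3 are named because they complete the 10. Members, lists and motifs were chosen with earlier results of these data known. The settings varied were the q limit (−log10 q at or above 5), equal numbers of peaks, placement by overlap, a 200 bp gap, bins of 1 Mb, a pseudocount of 2, no filter, a replicate block, leaving out each library and, added after seeing the data, an interval widened by 10 kb. Marker genes, regulators of the cluster and other protocadherins were not analysed here, for want of gene positions on hg19.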

Additional observations from a re-analysis of the deposited data

How the results depend on the processing

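The 7 regions called in all 6 libraries became 6 under the limit on q and 5 at equal numbers. The 10 merged regions became 8 and 7 in these settings. On leaving out each library the 7 remained 7, but a region called in every library is still called in all the rest. All counts of regions stayed within 1.5 times except those given here. Regions called in the 3 NuMA-depleted libraries alone went from 0 to 1 (region 6) at equal numbers, and those called in the 3 wild-type libraries alone from 0 to 1 in the interval widened by 10 kb. The difference in peaks in the interval, -0.667, became 0.333 under the limit on q and 1.33 at equal numbers, and that in PCDHA, -0.333, became 0.333 in both. The difference in covered length, 129 bp, lay between -165 and 475 bp over the 6 fits that leave out a library, and was negative without NuMA-depleted replicate 2 and without wild-type replicate 3 (-129 bp). The log2 difference in the share of peaks, -0.05, became 0.02 with bins of 1 Mb, 0.12 under the limit on q and 0.30 at equal numbers, and lay between -0.33 and 0.20 over the fits that leave out a library. No adjusted p was under 0.05 for this bin in any of these limma fits. The median PCDHA spacing moved from 24.5 to 35.45 kb with shared regions alone. The causes were not tested. With a replicate block the share differed by -0.05 (adjusted p 0.984 by limma) and the number of peaks by -0.667 (exact sign-flip p = 0.5, where the smallest possible is 0.25). Same-numbered libraries correlated at -0.0629, 0.138 and 0.0462 in their deviations over bins, so the numbers were not taken as pairs. Gene starts with an open region were not counted, and the PCDHG spacing of shared regions has no value with 1 such region. Pileups of 6 to 8 fragments, the least in any list, limit what could be called.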

Other observations

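A region 4.42 kb above the end of the interval, on chromosome 5 at 140904423 to 140904782, was called in all 3 wild-type libraries and in no NuMA-depleted library. Its fold was 4.47, 5.22 and 5.14 in wild-type replicates 1, 2 and 3, with 24, 27 and 26 fragments at the summit. A second region of this kind lay 346 kb above the interval, at 141245703 to 141246042, with folds of 5.80, 6.33 and 6.19. Of all regions of the series, 0.592% were called in this way, so both are values and not a result about the cluster. They were singled out after their values were seen.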
